A study of Rattus norvegicus with 14 samples.

Results

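Fatty acid oxidation genes and targets of PPARA were described in the livers of lean female Zucker rats fed a rosemary extract. The set has 39 listed genes, chosen by function but with earlier results of these data known. Of them, 36 were measured by an array probe annotated to exactly 1 gene, among 14506 genes tested in all. For a gene with more than 1 such probe the brightest was used. Acaa1a, Acot3 and Acot4 lie only on probes shared with another gene and were not tested.

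The 14 rats were heterozygous for fa, a leptin receptor mutation that makes homozygous rats obese (fa/+, lean), and were about 15 weeks old per the series title. The extract group (7 rats) ate a standard diet with a rosemary extract that held 40% carnosic acid, a diterpene antioxidant. The sample labels give its dose as 0.05% of the diet by weight, the series title as 0.5%. The control group (7 rats) ate the standard diet alone. Both were fed for 64 days, and total liver RNA of each rat went on its own array. The spread between arrays thus holds differences between animals and between array preparations, which cannot be told apart. The values are log2 expression values, and a log2 fold is the extract mean minus the control mean.

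PPARA is a nuclear receptor that pairs with RXR, binds fatty acids and switches on genes of fatty acid use in the liver, most of all in fasting. Its targets let acyl groups into mitochondria on carnitine, shorten them there or in peroxisomes by beta-oxidation, and pass the electrons to the respiratory chain or the acetyl units to ketone bodies. In rodents, drugs that activate PPARA raise many of these transcripts together.

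The receptor pair reads a direct repeat of a 6-base element with 1 base between the copies. The promoter windows of RefSeq (GRCr8 build, 250 bases before to 50 bases after each gene's start) were searched on both strands for AGGNCANAGGNCA. The windows cover 34 of the 39 genes in 35 promoters. The repeat was found in 1 of the 35 (2.86%) against 0.415% of all 33469 promoters. That promoter belongs to Fabp1, the abundant fatty acid binding protein of hepatocytes, at chr4:104749090-104749389 on the plus strand. It is shown whole because it is the only window of the 35 with the stricter repeat. Capitals mark the repeat, which reads on the opposite strand and spans bases -77 to -65 from the start.
Fabp1: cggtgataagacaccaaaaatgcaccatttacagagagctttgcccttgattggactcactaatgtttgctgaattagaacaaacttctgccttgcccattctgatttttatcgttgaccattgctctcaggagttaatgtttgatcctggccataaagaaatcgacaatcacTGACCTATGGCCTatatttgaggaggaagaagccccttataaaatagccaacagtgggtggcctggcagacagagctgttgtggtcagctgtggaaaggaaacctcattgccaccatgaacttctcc

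The looser form AGGNNANAGGNNA, which contains the first motif, was found in 4 of the 35 promoters (11.4%) against 2.93% of all. Beside Fabp1 these were the promoters of Creb3l3, a liver transcription factor, and of Etfa and Etfb, the subunits of the electron transfer flavoprotein. Their windows are given in the gene's own direction, with the matched bases in capitals. The Creb3l3 match spans bases -194 to -182 from the start, that of Etfa -154 to -142 and that of Etfb -191 to -179. A match is a likeness of letters and says nothing of binding.
Creb3l3: ctgtaagtAGGGGAGAGGTCAcacagact
Etfa: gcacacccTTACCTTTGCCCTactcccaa
Etfb: ctttggaaTGCCCTTTTCCCTacttctgt

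None of the 36 measured genes had a Benjamini-Hochberg adjusted p under 0.05 in limma's moderated test (0 higher and 0 lower), while 457 of 14506 genes (3.15%) did, 2.0% higher and 1.15% lower. Those were 290 higher and 167 lower genes, against 415 higher and 144 lower after median centring of the arrays, which called 0 of the 36. Before adjustment, 10 of the 36 (27.8%) had a p under 0.05, against 14.8% of all genes. Of the 10, 7 had a positive and 3 a negative fold, where 7.45% of all genes passed that level with a positive and 7.4% with a negative fold. In an unequal-variance test per gene 1 of the 36 passed, Fabp1. The log2 folds of the 36 were small, from -0.39 for Crot to 0.48 for Cd36, with a median of 0.11 where the median over all genes was -0.0009. They leaned upward: 27 of 36 (75.0%) were positive, against 49.7% of all genes. Because the genes were chosen with earlier results of these data known, such shares are a description and not a test. The groups overlapped in every member, whereas in 1.54% of all genes they did not. The 95% intervals reached at most 1.83-fold higher (Vnn1) and 1.61-fold lower (Fgf21).

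1 control animal, control rat 1, bore on several of these values. Its array had the lowest of the 14 array weights that limma estimates (0.41), followed by extract rat 4 (0.46). Control rat 1 had the lowest level of all 14 rats in 9 of the 36 genes and the highest in 3. Low levels were not special to it, as control rat 4 was lowest in 8 and highest in 0. Averaged over the 36 genes as deviations from the control means, control rat 4 (-0.147) lay below control rat 1 (-0.046). When control rat 1 was left out, 3 of the 36 (8.33%) passed, against 4.28% of all genes (2.27% higher and 2.01% lower). Of these 3, Cd36 and Slc25a20 were higher and Plin2 was lower with the extract. The median log2 fold was then 0.08, and 69.4% of the 36 were positive, against 48.8% of all genes. The same 3 genes passed when extract rat 4 was left out as well (3.96% of all genes, 2.39% higher and 1.57% lower), a setting chosen after the data had been seen, Slc25a20 with an adjusted p of 0.050.

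**Figure D1:**
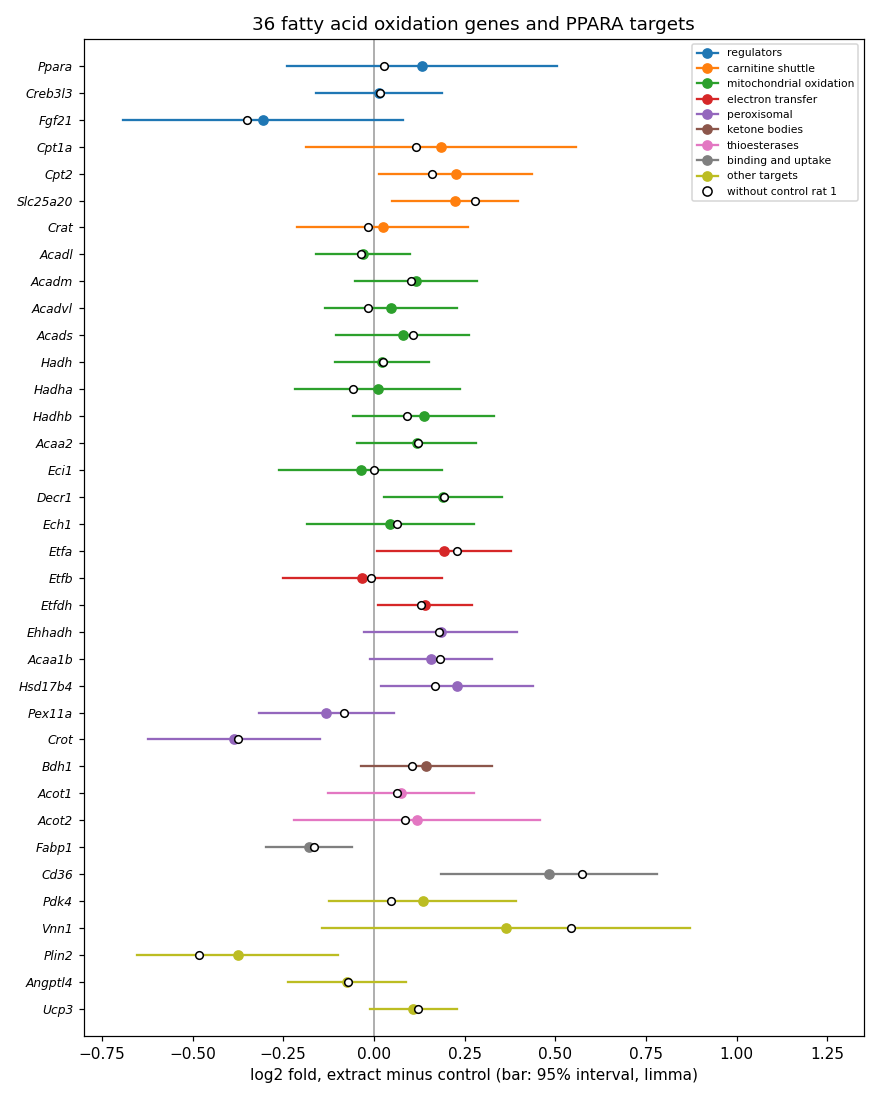
Log2 fold (extract minus control, x axis) of the 36 genes, coloured by role, with limma's 95% intervals as bars; open circles are the folds without control rat 1. Most points lie between -0.2 and 0.25, Cd36 lies farthest right of 0 at 0.48, and Crot and Plin2 lie farthest left at -0.39 and -0.38.

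The receptor itself did not differ beyond the spread between rats. Ppara ran from 8.73 to 9.88 in extract rats (median 9.36) and from 8.55 to 9.79 in control rats (median 9.30). Its log2 fold of 0.13 ± 0.18 (SE, n = 7 each; adjusted p = 0.81 in limma) was 0.03 without control rat 1, the rat with the lowest value. The interval of the fold, -0.24 to 0.51, leaves room for a change of up to 1.42-fold. Creb3l3 had means of 10.73 ± 0.19 in extract rats and 10.72 ± 0.11 in control rats (SD, n = 7 each).

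Fgf21, a hormone that the liver secretes in fasting under PPARA, had 6.60, 7.50 and 7.97 as its lowest, median and highest value in extract rats, against 7.29, 7.53 and 8.19 in control rats. The medians nearly coincide, and extract rat 4 supplies the low extreme. The log2 fold was -0.31 ± 0.18 (SE, adjusted p = 0.48 in limma), and -0.17 without extract rat 4.

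Carnitine shuttle genes had a median log2 fold of 0.20 over 4 genes, and 0.14 without control rat 1. Slc25a20 is the carrier that swaps acylcarnitine for carnitine across the inner mitochondrial membrane. Its level ran from 10.13 to 10.44 in extract rats (median 10.28) and from 9.85 to 10.39 in control rats (median 10.06). All 7 extract rats lay above the control median, and 6 of them above every control but control rat 1, which had the highest control value. The log2 fold was 0.22 ± 0.08 (SE, adjusted p = 0.18 in limma), and 0.28 ± 0.07 (adjusted p = 0.036) without control rat 1.

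Cpt1a, the gated entry step of long-chain oxidation on the outer membrane, spread widely in both groups. It ran from 10.18 to 11.08 in extract rats (median 10.47) and from 9.73 to 10.98 in control rats (median 10.27), with a log2 fold of 0.18 ± 0.18 (SE, adjusted p = 0.71 in limma). Its partner on the inner membrane, Cpt2, had 10.44, 10.63 and 11.02 as lowest, median and highest value in extract rats, against 10.04, 10.48 and 10.60 in control rats. Here 5 of 7 extract rats lay above all controls, yet the log2 fold of 0.23 ± 0.10 did not pass (adjusted p = 0.30 in limma). It was 0.16 without control rat 1, the lowest control. Crat, which moves acetyl groups on and off carnitine, had a log2 fold of 0.02.

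Of the 11 enzymes of mitochondrial beta-oxidation 9 had a positive fold, with a median of 0.05 (0.06 without control rat 1). Their folds lay between -0.04 and 0.19, and the intervals reached at most 1.28-fold higher and 1.20-fold lower. The acyl-CoA dehydrogenases, which open the cycle for acyl chains of different length, had log2 folds of -0.03 (Acadl), 0.12 (Acadm), 0.05 (Acadvl) and 0.08 (Acads). Acadm, a widely used PPARA target, ran from 10.64 to 11.19 in extract rats (median 10.97) and from 10.69 to 11.02 in control rats (median 10.79), with 6 of 7 extract rats above the control median (adjusted p = 0.56 in limma). The later steps gave 0.02 for Hadh, 0.01 for Hadha, 0.14 for Hadhb and 0.12 for Acaa2. Hadha and Hadhb are the subunits of the trifunctional protein. The sign of Hadha turned in other settings, among them the mean of its 2 probes (-0.04) and the fit without control rat 1 (-0.06).

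Decr1 and Eci1, which prepare unsaturated chains for the cycle, had log2 folds of 0.19 and -0.04. Decr1 had the smallest p among the 11, with 9.21, 9.32 and 9.73 as lowest, median and highest value in extract rats, against 9.05, 9.22 and 9.28 in control rats. Although 6 of 7 extract rats exceeded all controls, the adjusted p was 0.24 in limma. Ech1, another isomerase of unsaturated chains, had 0.05.

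The electron transfer flavoprotein takes the electrons of the acyl-CoA dehydrogenases and hands them to its oxidoreductase, encoded by Etfdh. Etfdh ran from 10.19 to 10.43 in extract rats (median 10.34) and from 10.09 to 10.32 in control rats (median 10.14). All 7 extract rats lay above the control median and 5 above every control, with a log2 fold of 0.14 ± 0.06 (SE, adjusted p = 0.29 in limma). The flavoprotein's subunits, Etfa and Etfb, whose promoters are shown above, had log2 folds of 0.19 and -0.03, the first with an adjusted p of 0.31.

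Peroxisomal genes went both ways. Their median was 0.16 over 5 measured genes (0.17 without control rat 1), against 0.05 for mitochondrial beta-oxidation. The mean log2 fold had the reverse order, 0.01 for the peroxisomal genes against 0.06 for mitochondrial beta-oxidation. The spread within the peroxisomal role, -0.39 to 0.23, exceeded either gap. The genes of the peroxisomal beta-oxidation cycle itself had positive folds: 0.18 for Ehhadh and 0.23 for Hsd17b4, the bifunctional enzymes, and 0.16 for the thiolase Acaa1b. Hsd17b4 ran from 10.63 to 11.22 in extract rats (median 10.87) and from 10.30 to 10.90 in control rats (median 10.63). All its extract values lay above the control median (adjusted p = 0.28 in limma). Ehhadh had an adjusted p of 0.42. Pex11a, which divides peroxisomes, had -0.13. The probe that Acaa1a shares with Acaa1b, left out of the test, averaged 11.23 ± 0.13 in extract rats and 11.18 ± 0.08 in control rats (SD, n = 7 each).

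Crot, the peroxisomal carnitine octanoyltransferase that exports shortened acyl groups, pointed the other way and had the smallest p of the 36. Its lowest, median and highest values were 9.53, 9.99 and 10.37 in extract rats, against 10.07, 10.42 and 10.65 in control rats. All 7 extract rats lay below the control median and 5 below every control. The log2 fold was -0.39 ± 0.11 (SE, adjusted p = 0.075 in limma), a ratio of 0.76. The call depended on the setting, with an adjusted p of 0.031 without extract rat 5, 0.050 without control rat 7, 0.030 with array weights, 0.048 after repeated quantile normalization, 0.084 without control rat 1 and 0.18 in the unequal-variance test. Leaving out 1 rat gave 0.031 to 0.15.

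**Figure D2:**
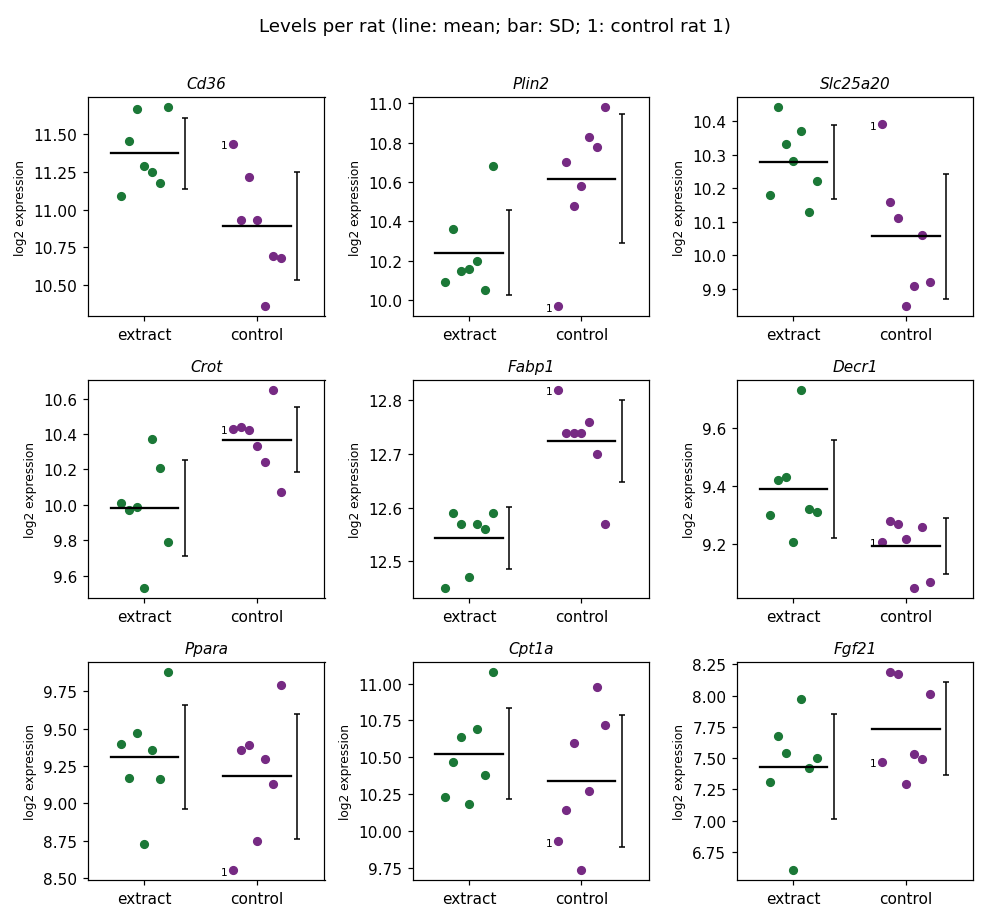
Log2 expression in each rat (points, y axis) for 9 of the genes, extract rats left and control rats right, with the group mean as a line, the SD as a bar and control rat 1 marked 1. Control rat 1 has the lowest value of Plin2 and Ppara among the 14 rats and the highest control value of Cd36 and Slc25a20.

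Ketone body formation was represented by Bdh1, the mitochondrial dehydrogenase that turns acetoacetate into beta-hydroxybutyrate. Bdh1 ran from 10.23 to 10.62 in extract rats (median 10.53) and from 10.12 to 10.61 in control rats (median 10.38). The groups share nearly the same range, and the log2 fold of 0.14 ± 0.09 had an adjusted p of 0.48 in limma. The acyl-CoA thioesterases, which free fatty acids from coenzyme A, gave 0.12 ± 0.16 for the mitochondrial Acot2 (adjusted p = 0.82). The cytosolic Acot1 had 0.07, with means of 3.14 ± 0.11 in extract rats and 3.06 ± 0.24 in control rats (SD, n = 7 each). Values this far below the median of all probes (5.10 in both groups) lie near background. The probe shared by Acot3 and Acot4 averaged 6.83 ± 0.21 in extract rats and 6.71 ± 0.15 in control rats.

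The pair of genes for binding and uptake of fatty acids had opposite signs. Cd36, a membrane receptor that takes up long-chain fatty acids, showed the largest positive fold of the 36. It ran from 11.09 to 11.68 in extract rats (median 11.29) and from 10.36 to 11.44 in control rats (median 10.93). All 7 extract rats lay above the control median and 3 above every control, with a log2 fold of 0.48 ± 0.14 (SE, adjusted p = 0.077 in limma), or 1.40-fold. Without control rat 1, the highest control, 5 of 7 lay above every control and the log2 fold was 0.57 ± 0.13 (adjusted p = 0.013). The other Cd36 probe averaged 8.95 ± 0.24 in extract rats and 8.46 ± 0.40 in control rats (SD, n = 7 each), a difference of 0.49.

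Cd36 is also made by macrophages and endothelial cells, and their markers had folds of the opposite sign, most of which did not pass. All 13 macrophage markers had a negative fold (median -0.26). Marco and Vsig4 fell (0 rose, 2 fell, 11 did not pass), where 1.15% of all genes were called lower. Before adjustment 10 of the 13 had a p under 0.05 in limma, where 7.4% of all genes did with a negative fold. The mean over the list lay between 8.33 and 8.64 in extract rats and between 8.67 and 9.00 in control rats. The 5 endothelial markers measured were negative too (median -0.21, 0 passed), with list means of 8.37 to 8.99 in extract rats and 8.75 to 8.95 in control rats. In whole liver, fewer cells of a type and less RNA per cell cannot be told apart, and the part of these cells in the Cd36 values was not tested. Of 15 hepatocyte markers 10 had a negative and 5 a positive fold, from -0.12 to 0.08 (median -0.04), and 0 passed. Their list means ran from 12.78 to 12.86 in extract rats and from 12.77 to 12.92 in control rats.

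Fabp1 had the tightest values of the 36, with a within-group SD of 0.07. Such tightness was not special to it, as the 15 hepatocyte markers, also bright, had a median within-group SD of 0.08. It ran from 12.45 to 12.59 in extract rats (median 12.57) and from 12.57 to 12.82 in control rats (median 12.74). All 7 extract rats lay below the control median and 3 below every control. Control rat 7 was the 1 control within the extract range. The log2 fold was -0.18 ± 0.06 (SE, n = 7 each; adjusted p = 0.10 in limma), a ratio of 0.88. The unequal-variance test gave an adjusted p of 0.037, and the replicate block gave 0.24. Of the promoters shown above, the genes with the looser match had log2 folds of 0.01 (Creb3l3), 0.19 (Etfa) and -0.03 (Etfb).

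Plin2 coats lipid droplets and follows the fatty acid load of the hepatocyte. Its lowest, median and highest values were 10.05, 10.16 and 10.68 in extract rats, against 9.97, 10.70 and 10.98 in control rats. All 7 extract rats lay below the control median, but control rat 1 had the lowest value of all 14. With it the log2 fold was -0.38 ± 0.13 (SE, adjusted p = 0.16 in limma), and without it -0.48 ± 0.10 (adjusted p = 0.010), with 6 of 7 extract rats below the 6 other controls. Array weights also brought Plin2 past the threshold (adjusted p = 0.024).

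Pdk4, a kinase that shuts off pyruvate oxidation in fasting, ran from 10.49 to 11.07 in extract rats (median 10.88) and from 10.16 to 10.98 in control rats (median 10.83). The log2 fold of 0.13 was 0.05 without control rat 1. Angptl4, a secreted inhibitor of lipoprotein lipase, had -0.07 ± 0.08 (adjusted p = 0.74 in limma). Vnn1, a pantetheinase used as a PPARA marker in mice, spread most of all, from 7.94 to 8.94 in extract rats (median 8.25) and from 7.04 to 9.05 in control rats (median 7.88). Its log2 fold of 0.36 was 0.54 without control rat 1, the highest control, and did not pass in either fit (adjusted p = 0.54 and 0.15). Ucp3, an uncoupling protein of muscle and brown fat, lay below the median probe, at 4.41 ± 0.08 in extract rats and 4.30 ± 0.06 in control rats (SD, n = 7 each). The mean over 8 muscle markers also lay below it, although 2 of them, Ckm and Acta1, did not, with list means of 4.30 to 4.51 in extract rats and 4.19 to 4.38 in control rats (0 of 8 passed).

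Within a group, the genes differed in how far rats spread. The median within-group SD was 0.18 over the 36 genes and 0.16 over all genes. The widest spreads were those of Vnn1 (0.53), Fgf21 (0.40), Cpt1a (0.39), Ppara (0.39) and Acot2 (0.35). The narrowest were those of Fabp1 (0.07), Ucp3 (0.07), which lay below the median probe, Acadl (0.09), Hadh (0.09) and Etfdh (0.09). The rats with low Ppara were control rats 1 and 4 (8.55 and 8.75) and extract rat 4 (8.73). Control rats 4 and 1 also had the lowest Cpt1a of all 14 rats (9.73 and 9.93), and extract rat 4 the lowest of the extract rats (10.18). Control rat 2, with a Ppara of 9.36, had a Cpt1a of 10.14, below that of extract rat 4. Extract rat 7 was the highest rat in both genes and in 9 of the 36. Averaged over the 36 genes as deviations from the control means, the rats ran from -0.06 to 0.16 in the extract group and from -0.15 to 0.10 in the control group, so the groups overlapped.

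**Figure D3:**
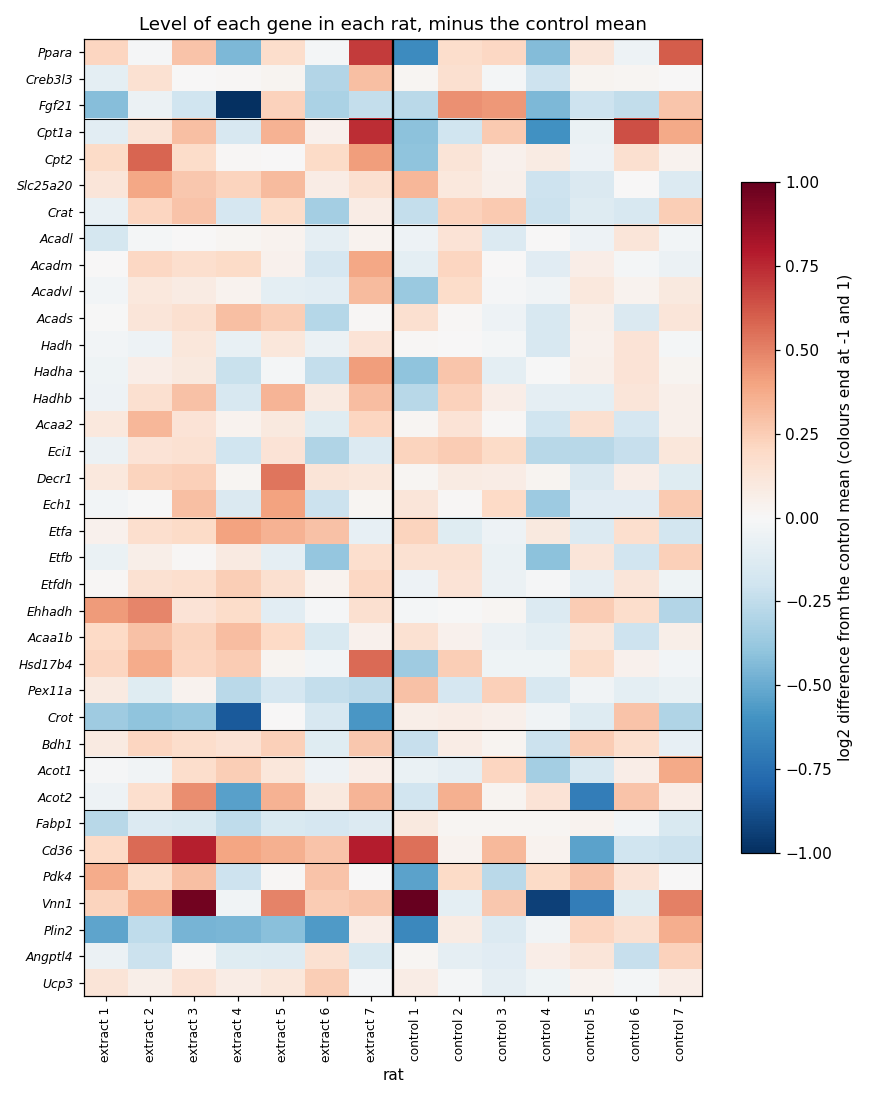
Level of each of the 36 genes (rows, ordered by role with lines between roles) in each rat (columns, extract rats left of the vertical line), as the log2 difference from the gene's control mean. The rows of Ppara and Cpt1a are blue in extract rat 4 and in control rats 1 and 4. Cpt1a also lies below its control mean in other rats, among them control rat 2 and extract rat 1. The row of Crot is blue in 6 of 7 extract rats, against a mostly pale field.

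A wider list of 89 genes around the pathway was read in the same way, and 78 of them were measured. Of the 78, 5 rose and 4 fell (11.5%, where 3.15% of all genes passed) and 69 did not pass. This list too was chosen with earlier results of these data known, so its share is a description and not a test of the pathway. The list's median log2 fold was 0.01. Without control rat 1, 6 of the 78 were called higher and 7 lower, where 2.27% and 2.01% of all genes were. The genes added were Pparg (log2 fold 0.49, adjusted p = 0.0145 in limma), Ppard (-0.51, 0.032), Lipe (-0.42, 0.046) and Cpt1b (-0.46, 0.0048). Cpt1b lay below the median probe, with means of 4.51 in extract rats and 4.89 in all 7 control rats.

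In the ketone body list 1 of 4 genes rose. Acat1, the mitochondrial thiolase that joins acetyl units and also serves isoleucine breakdown, had 10.50, 10.83 and 11.00 as lowest, median and highest value in extract rats, against 10.14, 10.34 and 10.44 in control rats. The groups did not overlap, and the log2 fold was 0.45 ± 0.08 (SE, adjusted p = 0.0020 in limma), or 1.37-fold. Acadsb, the dehydrogenase of short branched acyl chains, did not overlap either and rose by 0.33 ± 0.07 (adjusted p = 0.011), from the list of mitochondrial control and related enzymes. In that list 2 of 18 rose and 0 fell. The second was Pdp2, a pyruvate dehydrogenase phosphatase that works against the Pdk kinases, at 0.49 ± 0.12 (adjusted p = 0.031).

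Among omega-oxidation genes, 1 of 4 rose. Cyp4a8 lay near background, as Acot1 did, so the size of its change is uncertain, at 4.13 ± 0.14 in extract rats and 3.69 ± 0.12 in control rats (SD, n = 7 each), with a log2 fold of 0.44 (adjusted p = 0.0022 in limma). Its relatives Cyp4a1 and Cyp4a3, PPARA targets of rodent liver, had log2 folds of 0.09 and 0.15 (adjusted p = 0.69 and 0.24). In the peroxisome list 1 of 15 fell and 0 rose: Phyh, which starts the alpha-oxidation of phytanic acid, was lower in all 7 extract rats (11.45 to 11.85) than in any control (11.86 to 12.25), with a log2 fold of -0.31 ± 0.08 (adjusted p = 0.045).

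In the list of activation and uptake 2 of 19 fell and 0 rose. Fabp2, the fatty acid binding protein of intestine and of liver at a lower level, had 7.20, 7.74 and 8.19 as lowest, median and highest value in extract rats, against 7.60, 8.55 and 9.02 in control rats. Its log2 fold was -0.81 ± 0.19 (adjusted p = 0.023 in limma), the same sign as that of Fabp1. Acsl5, an acyl-CoA synthetase, had -0.36 ± 0.09 (adjusted p = 0.037).

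In a list of 18 genes, made of partners and coregulators of PPARA and of other regulators, 1 rose and 1 fell. Ppargc1a, the coactivator PGC-1alpha, ran from 6.72 to 7.03 in extract rats (median 6.95) and from 5.93 to 6.75 in control rats (median 6.06). In 6 of 7 extract rats it exceeded every control, with a log2 fold of 0.75 ± 0.11 (SE, adjusted p = 0.00062 in limma), or 1.68-fold. Nr1h3, the sterol receptor LXR-alpha, which also pairs with RXR, had -0.35 ± 0.08 (adjusted p = 0.016), with 6 of 7 extract rats below every control.

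Of these 9 calls, those of Acat1, Acadsb and Ppargc1a held in every setting tried, and that of Cyp4a8 in every setting that tested it. That of Nr1h3 held when any single rat was left out, but not in the unequal-variance test (adjusted p = 0.058) or with the replicate block (0.067). Pdp2 lost its call when 1 of these was left out: extract rats 2, 3, 5, 6 and 7, control rats 2, 3, 5 and 7 (adjusted p between 0.051 and 0.075). The call of Phyh was lost in the same way with extract rats 1, 2, 3, 4 and 6 and control rats 2, 3, 4, 5 and 6 (0.058 to 0.091). For Acsl5 they were extract rats 1, 3, 5 and 6 and control rats 2, 4, 5 and 6 (0.056 to 0.084). For Fabp2 they were extract rats 1 and 2 and control rats 2, 3 and 7 (0.051 to 0.059).

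**Figure D4:**
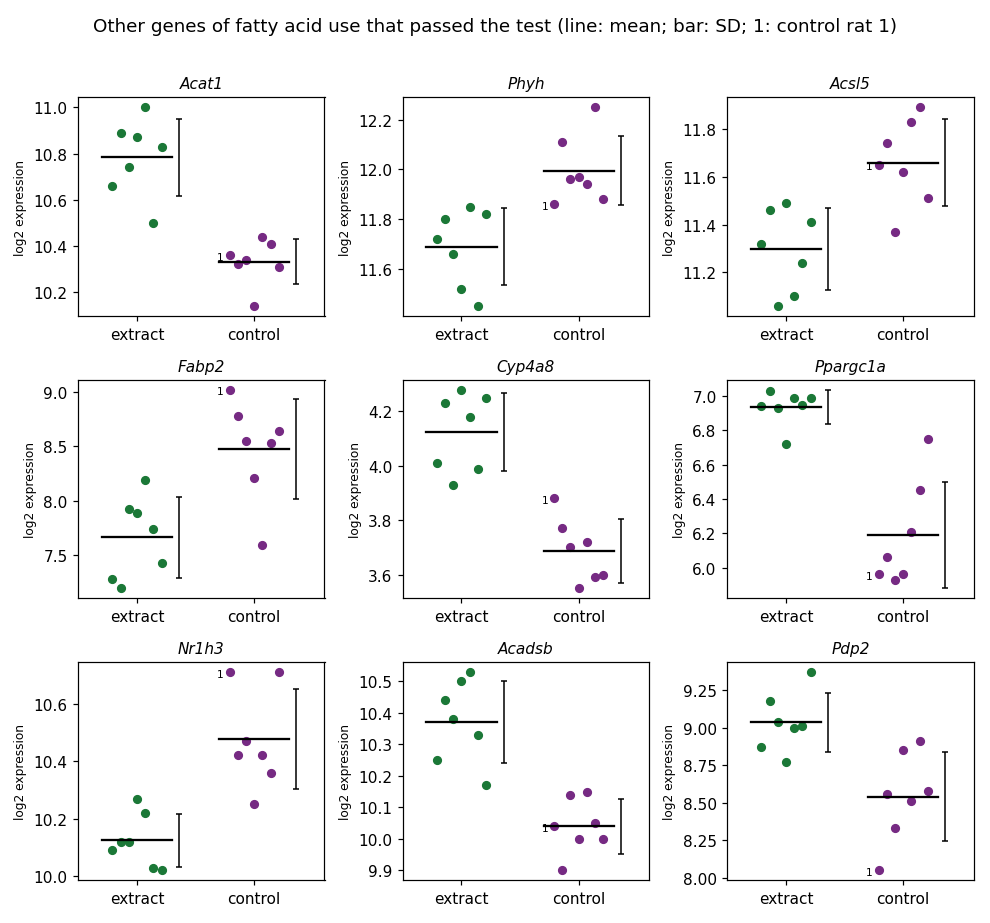
Log2 expression in each rat (points, y axis) for the 9 genes of the wider list that passed the test, extract rats left and control rats right, with the group mean as a line, the SD as a bar and control rat 1 marked 1. For Acat1, Acadsb and Cyp4a8 every extract rat lies above every control, for Phyh every extract rat lies below.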

How the data were processed

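Total liver RNA of 14 rats was labelled by an Affymetrix whole-transcript protocol and hybridised, 1 array per rat, as the labels say. The authors deposited log2 values of 29215 probes, computed with RMA and Affymetrix Expression Console 1.1.2, per the submitters' processing notes; the options and genome build are not given in the sources used here. RMA compresses folds near background. Array medians lay between 5.02 and 5.15, and arrays correlated between 0.983 and 0.996. The number of arrays limits the precision.

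Gene names came from GEO's annotation of the platform: 15310 probes had 1 symbol, 323 several and 13582 none. Groups and rat numbers came from the sample titles. The groups were compared by lmFit and eBayes of limma 3.58.1 in R 4.3.3 (two-sided, no covariate), Benjamini-Hochberg adjusted over 14506 genes at 0.05. Tested on simulated data with independent normal noise, this fit called 13.6%, 85.2% and 100% of genes given log2 folds of 0.25, 0.5 and 1. Of its calls, which included genes given 2, 5.8% were false. These shares are averages over genes of all spreads, and members with a wide spread, such as Vnn1, were not simulated on their own. Alternatives were other normalizations, a filter (mean of at least 6), all probes of a gene, robust variance with a trend, an unequal-variance test, array weights, the rat number as a block, and leaving out each rat. Genes named by rule are 27 in all. They are the 8 members with the smallest p, the member with the smallest p in each of 9 roles and 12 chosen pathway genes. Added to these are members passing without control rat 1 and the called genes of each wider list. Other members are named with their values to account for the set. Wider-list genes that passed only without control rat 1 are named as well. Members and lists were chosen with earlier results of these data known.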

Additional observations from a re-analysis of the deposited data

Results flagged for a closer look

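Across 90 groups of 7 rats (the 36 genes and the 9 called genes of the wider list, in each diet), 5 had a lowest or highest rat that stood apart from the others, where chance gives about 1 in 20. Decr1 stood at 9.73 in extract rat 5, with the next extract rat at 9.43. Ppargc1a stood at 6.72 in extract rat 4, with the next extract rat at 6.93. Control rat 1 stood low in Cpt2, at 10.04 with the next control at 10.39, and in Acadvl, at 9.81 with the next control at 10.15. Without control rat 1 the log2 fold of Cpt2 was 0.16 (adjusted p = 0.38 in limma) and that of Acadvl -0.02, in place of 0.23 and 0.05. Acat1 stood at 10.14 in control rat 4, with the next control at 10.31. Its call held without that rat.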

How the results depend on the processing

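Over all genes, 290 were higher and 167 lower with the extract, against 432 and 262 with array weights, 415 and 144 after median centring and 171 and 56 in the unequal-variance test. Leaving out 1 rat gave 209 to 329 higher and 116 to 292 lower, the most of both without control rat 1. Of the 36 genes, 0 were called higher and 0 lower. Array weights called 1 higher and 2 lower, repeated quantile normalization called 1 lower, and so did the unequal-variance test. Leaving out 1 rat gave 0 to 2 higher and 0 to 1 lower, and leaving out control rat 1 with extract rat 4 gave 2 and 1. The median log2 fold of the 36 lay between 0.07 and 0.12 when 1 rat was left out and was 0.15 after median centring. Hadha, near 0 throughout, turned to -0.0165 after repeated quantile normalization, to -0.0172 with array weights, to -0.0193 without control rat 1 and extract rat 4 and to -0.0358 over its 2 probes, and ran from -0.0584 to 0.057 when 1 rat was left out. The unequal-variance test also ended the calls of Phyh, Acsl5, Fabp2, Nr1h3 and Pdp2 (adjusted p from 0.058 to 0.12), as did repeated quantile normalization and median centring for Phyh (0.14 and 0.062) and Acsl5 (0.064 and 0.062); the cause was not tested. With the rat number as a replicate block, 235 genes were higher, 129 lower and 0 of the 36 called, and the calls of Phyh, Acsl5, Fabp2 and Nr1h3 were lost. The labels do not say that a number pairs rats, and same-numbered rats correlated in their deviations from -0.46 to 0.28, with r over 0.1 in 4 of 7 pairs and 2 of 7 extract rats closest to their own number.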
